A study of Mus musculus with 18 samples.

Results

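A set of genes linked to Paneth cells were followed across the intestine of male C57BL/6 mice: the alpha-defensin genes Defa22, Defa23 and Defa39, the lysozyme gene Lyz1, the mucosal pentraxin gene Mptx1, the intelectin gene Itln1 and the hyaluronan-binding protease gene Habp2. They were chosen by name, and the choice was made with the values of these same arrays known, so their differences are given with errors and without p-values. All 7 were among the 26067 genes compared, through 8 probes, 2 of them for Defa39. The study held 18 two-colour Agilent arrays in 6 groups of 3: tumours after azoxymethane (AOM) in mice fed St. John's wort (SJW), tumours after AOM on control diet, non-tumour tissue after AOM on SJW diet, non-tumour tissue after AOM on control diet, saline-injected mice on SJW diet and saline-injected mice on control diet. AOM is a carcinogen that induces intestinal tumours in rodents, and SJW is a medicinal herb. On each array red signal came from 1 sample and green signal from a purchased mixture of Swiss Webster mouse RNA (the pool below), made from embryos and organs other than intestine. All values are log2 ratios of sample to pool, so 0 means a level equal to the pool. According to the series design, replicates are biological, and the labels used here give no age, dose, interval or intestinal segment.

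Paneth cells lie at the base of the crypts of the small intestine and release granules with antimicrobial proteins into the lumen. In mice the alpha-defensins, also called cryptdins, are made as inactive precursors that matrix metalloproteinase 7 cuts into active peptides. Wnt signals from the crypt base, acting through TCF factors, drive the expression of several Paneth cell genes, and normal mouse colon holds very few Paneth cells. Lysozyme cleaves bacterial cell walls, and intelectins bind sugars on microbes.

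The upstream sequences of the members were compared first, because Defa22 and Defa23 moved together on these arrays. RefSeq promoter entries of build GRCm38.p6 were found for 6 of the 7 members. The 250 bases before the start site are shown for the defensin pair and for Mptx1, which moved the other way in tumours, and capitals mark matches to ATCAAAG, the core letters of TCF/LEF sites, or to TATAAA, the TATA box, on either strand. The intervals are chr8:21162027-21162276 on the plus strand for Defa22, chr8:21054790-21055039 on the plus strand for Defa23 and chr1:174330268-174330517 on the plus strand for Mptx1.
Defa22: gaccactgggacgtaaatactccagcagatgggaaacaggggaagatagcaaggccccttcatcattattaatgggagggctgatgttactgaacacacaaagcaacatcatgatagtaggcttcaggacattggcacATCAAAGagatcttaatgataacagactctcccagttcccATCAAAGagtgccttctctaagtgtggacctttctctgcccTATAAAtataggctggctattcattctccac
Defa23: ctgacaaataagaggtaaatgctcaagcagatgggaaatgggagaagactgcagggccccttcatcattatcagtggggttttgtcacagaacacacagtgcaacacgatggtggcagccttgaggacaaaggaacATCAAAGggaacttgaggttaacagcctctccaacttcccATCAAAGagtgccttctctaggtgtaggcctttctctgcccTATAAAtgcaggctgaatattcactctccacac
Mptx1: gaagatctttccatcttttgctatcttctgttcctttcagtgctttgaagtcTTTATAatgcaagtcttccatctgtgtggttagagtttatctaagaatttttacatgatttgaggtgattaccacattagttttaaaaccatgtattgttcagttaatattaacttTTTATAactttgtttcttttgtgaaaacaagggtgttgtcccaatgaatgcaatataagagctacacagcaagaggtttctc
Defa22 and Defa23 were identical at 199 of 254 aligned positions (78.3%), while the other pairs of members reached 44.3% to 52.6%. Each of the 2 defensin promoters held 2 copies of ATCAAAG, which began 112 and 72 bases before the start in Defa22 and 114 and 74 bases before it in Defa23. At least 1 copy was present in 3.21% of 32851 promoters searched, and 2 or more copies in 0.0822%. Among the 16 alpha-defensin promoters of the table, these 2 included, 13 held a copy and 9 held 2 or more. Both defensin promoters also held 1 TATAAA, found in 12.4% of all promoters, and the motifs did not overlap. Lyz1, Mptx1, Itln1 and Habp2 had 0 copies of ATCAAAG in this window, and the 2 capital stretches of Mptx1 are TATAAA on the opposite strand. These matches describe the letters of the window and were not tested as binding sites.

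Sample labels give small intestine as the tissue, but liver appears in the extraction protocol, and defining markers were therefore checked. In saline-injected mice the colonocyte gene Car1 averaged 8.08 ± 0.50 on SJW diet and 7.81 ± 0.35 on control diet (SD, n = 3 each). The brush border lactase gene Lct, typical of small intestine, averaged -0.05 ± 0.19 and 0.13 ± 0.20, and was well above background on 1 and 2 of 3 arrays. The small intestinal sucrase gene Sis averaged 0.90 ± 0.69 and 1.01 ± 0.32. Some other enterocyte genes stood well above the pool, with Fabp2 at 5.27 ± 1.12 and 4.60 ± 0.74, Rbp2 at 3.59 ± 0.25 and 3.67 ± 0.34, and Fabp6 at 1.53 ± 0.96 and 2.76 ± 0.24. Others did not, with Alpi at -0.07 ± 0.335 and 0.07 ± 0.18, Apoa4 at 0.56 ± 0.11 and 0.78 ± 0.38, and Apoa1 at -1.28 ± 0.48 and -0.59 ± 0.90. The mean of 9 colonocyte genes was -0.90 to 0.47 on tumour arrays, 2.93 to 3.78 on AOM non-tumour arrays and 4.33 to 4.94 on saline arrays. The mean of 14 small intestinal enterocyte genes was -0.46 to -0.21, 0.36 to 0.85 and 0.52 to 1.33 on the same arrays. The hepatocyte gene Alb read -3.57 to 1.39 on tumour arrays, highest on SJW AOM tumour replicate 1, while all 12 non-tumour arrays stood at -2.39 or below. The markers do not settle the segment, and the tissue is called intestine below. Median red intensity was 336.5 to 786.5 on tumour arrays and 133 to 375 on the others. The pooled channel also fell into 2 classes on non-tumour arrays, with a median green intensity of 507 to 593 on 5 arrays (2 SJW saline, 2 control saline and 1 control AOM) and 198 to 263.5 on the other 7. Of the tumour arrays, control AOM tumour replicate 3 stood at 755 and the other 5 at 266 to 298. Tumour arrays lay on other slides and were scanned on another day than the rest, so tumour and slide or scan day cannot be told apart.

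**Figure D1:**
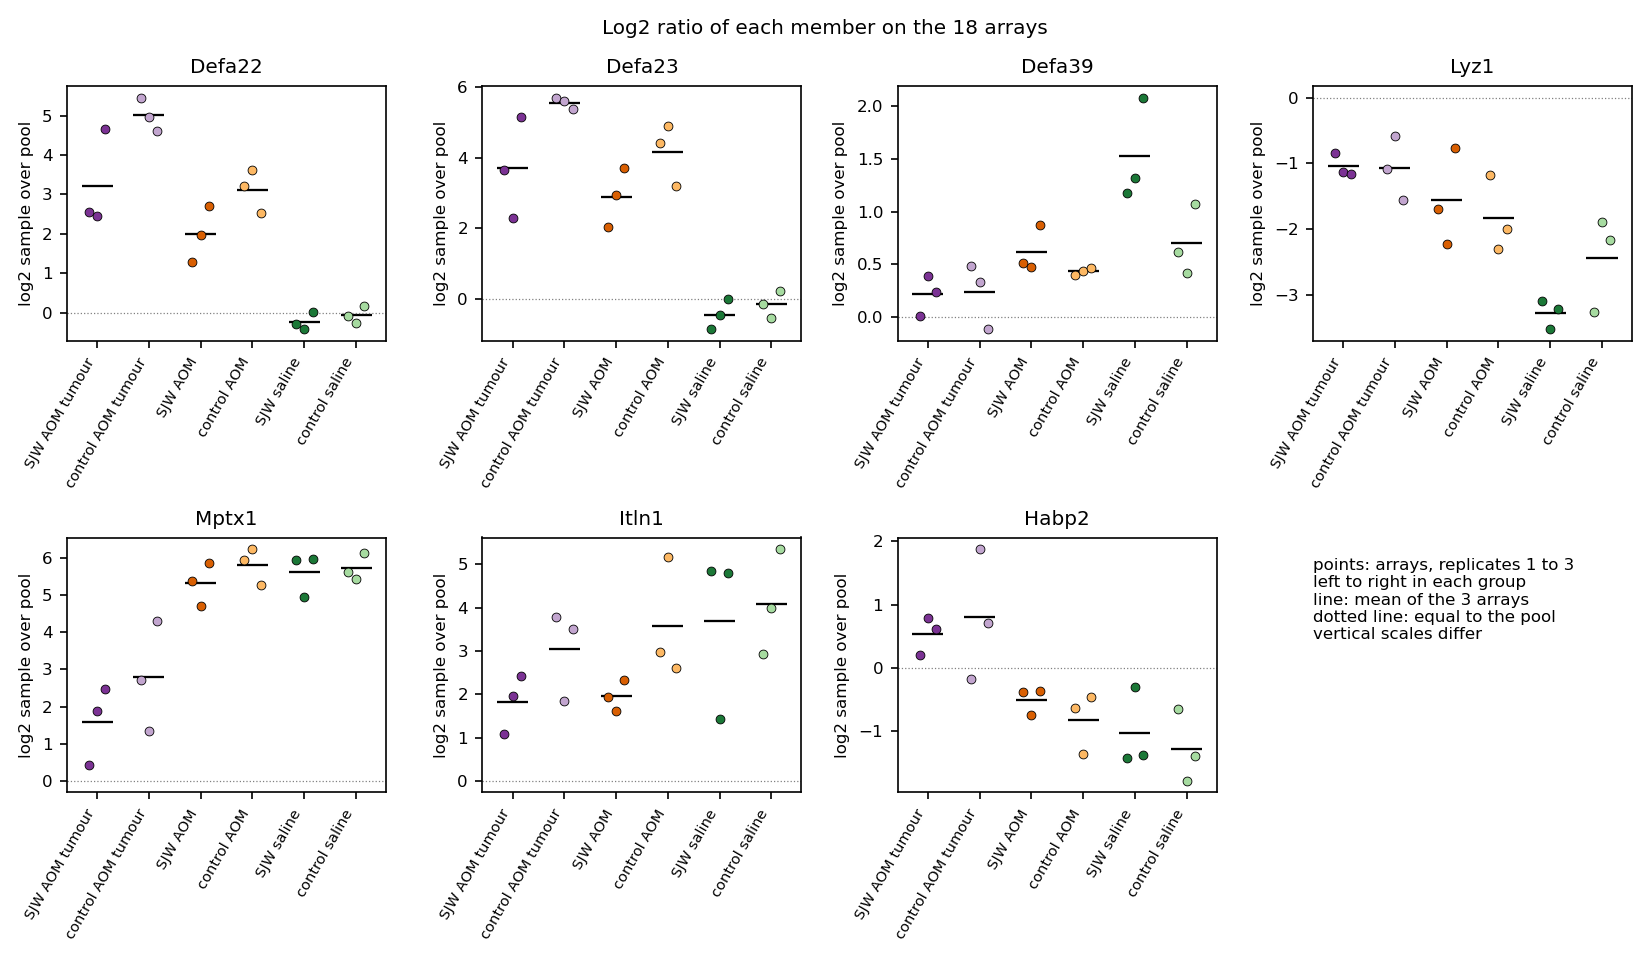
Log2 ratio of sample to pool for each of the 7 members, 1 panel a gene, with points for the 18 arrays, lines for the means of 3 arrays and groups along the horizontal axis; vertical scales differ between panels. Defa22 and Defa23 lie near 0 on the 6 saline arrays and at 1.29 or above on every array after AOM, while Mptx1 is at 4.71 or above on every non-tumour array and at 4.32 or below on every tumour array.

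Defa22 and Defa23, genes for cryptdin precursors, were near the level of the pool in saline-injected mice and far above it after AOM, in non-tumour tissue and in tumours alike. For Defa22, the non-tumour arrays after AOM read 1.29, 1.98 and 2.70 on SJW diet, against -0.28, -0.43 and 0.01 after saline on that diet. On control diet Defa22 read 3.22, 3.61 and 2.54 after AOM, against -0.09, -0.27 and 0.16 after saline. The lowest array after AOM thus lay above the highest after saline in both diets, as did 4 of the 7 members in 1 direction or the other on SJW diet and 2 of the 7 on control diet, where the groups of 28.6% and 21.6% of all genes did not overlap. The difference for Defa22 was 2.22 ± 0.48 (SE; 4.67-fold) on SJW diet and 3.19 ± 0.48 (9.14-fold) on control diet. Within the 3 slides, each of which held 1 array of every non-tumour group, it was 1.57 to 2.69 on SJW diet and 2.38 to 3.89 on control diet. The 5 AOM arrays with a dim pooled channel averaged 2.34, and the 2 dim saline arrays averaged -0.26.

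Defa23 gave a similar picture. Its non-tumour arrays after AOM read 2.04, 2.94 and 3.71 on SJW diet, against -0.85, -0.45 and -0.01 after saline. On control diet Defa23 read 4.41, 4.89 and 3.20 after AOM, against -0.13, -0.54 and 0.23 after saline. Again no AOM array reached down to a saline array. The difference was 3.33 ± 0.57 on SJW diet and 4.31 ± 0.57 (19.9-fold) on control diet. Red signal of Defa23 was well above background on 15 of 18 arrays, and the 3 others were control saline replicate 1 and SJW saline replicates 1 and 2, so the size of its fold change is less certain than its direction. In bulk tissue, more cells of a type and more RNA per cell cannot be told apart.

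In tumours the 2 defensins stood at or above the non-tumour tissue of AOM-treated mice, with a wide spread on SJW diet. Defa22 read 2.54, 2.45 and 4.65 in tumours on SJW diet, against 1.29, 1.98 and 2.70 in non-tumour tissue, and these ranges overlapped. On control diet it read 5.46, 4.98 and 4.60 in tumours, all above the 3.61 of the highest non-tumour array. In tumours 3 of the 7 members on SJW diet and 4 on control diet did not overlap with non-tumour tissue, beside 46.4% and 42.5% of all genes. The differences for Defa22 were 1.23 ± 0.48 on SJW diet and 1.89 ± 0.48 on control diet. Defa23 read 3.65, 2.30 and 5.14 in tumours on SJW diet and 5.70, 5.60 and 5.37 in tumours on control diet. Its differences from non-tumour tissue were 0.80 ± 0.57 and 1.39 ± 0.57, smaller than those for AOM against saline. Without SJW AOM tumour replicate 3, the highest of its group, the SJW difference of Defa23 was 0.08. The mean of 7 smooth muscle genes was 0.36 to 2.72 on the non-tumour AOM arrays and -1.71 to 0.94 on the saline arrays, ranges that overlapped. On the tumour arrays it was -1.44 to -0.67. After AOM all 7 had positive differences and 0 of 7 passed in each diet, where 1.48% (SJW diet) and 2.39% (control diet) of all genes passed. The share of muscle in the samples was not tested.

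Defa39, another alpha-defensin gene, did not share this pattern. It read 0.51, 0.48 and 0.87 in non-tumour tissue after AOM on SJW diet, against 1.17, 1.32 and 2.08 after saline. On control diet it read 0.39, 0.43 and 0.47 after AOM, against 0.61, 0.41 and 1.07 after saline. Tumours read 0.01, 0.39 and 0.24 on SJW diet and 0.48, 0.33 and -0.12 on control diet. With the probe used, the saline arrays on SJW diet were the highest 3 of all 18. The AOM difference was -0.90 ± 0.23 on SJW diet and -0.27 ± 0.23 on control diet, and the tumour difference was -0.41 ± 0.23 and -0.20 ± 0.23. A second Defa39 probe gave -0.79 ± 0.29 and -0.36 ± 0.29 for AOM, so both probes had the same sign. On SJW diet the second probe read 0.62 to 0.81 after AOM and 0.76 to 2.14 after saline. These groups thus overlapped, unlike with the probe used. In the red channel alone the AOM differences of Defa39 were -0.24 ± 0.41 and 0.11 ± 0.41.

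Alpha-defensin genes are closely related in sequence, and a probe for one may bind transcripts of another, so it is uncertain which single gene a value belongs to. Other genes of the family are given beside the members. They were listed with earlier results of these data known and may share bound transcripts, so they are not an independent view. Defa20 and Defa3 were measured, and Defa21 was on the array without passing the filter on dim probes. Defa20 read 0.49, 0.69 and 1.102 after AOM on SJW diet, against -0.07, -0.09 and -0.01 after saline. On control diet it read 1.41, 2.50 and 0.77 after AOM, against 0.08, 0.06 and 0.34 after saline. Groups did not overlap in either diet, as for 28.6% (SJW diet) and 21.6% (control diet) of all genes. The differences of 0.82 ± 0.46 (adjusted p = 0.331, limma) and 1.40 ± 0.46 (adjusted p = 0.113, limma) did not pass the test over all genes. In tumours Defa20 read 0.61, 0.74 and 2.55 on SJW diet, which was 0.54 ± 0.46 above non-tumour tissue (adjusted p = 0.41, limma). On control diet Defa20 read 3.55, 2.37 and 3.07 in tumours and rose by 1.44 ± 0.46 (2.71-fold, adjusted p = 0.0255, limma). That call was lost under 4 of 27 other settings.

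The 2 probes of Defa3 disagreed. The probe A_51_P467086 read 3.02, 3.14 and 4.42 after AOM on SJW diet, against -0.09, -0.53 and 0.95 after saline, and 4.54, 4.97 and 3.97 after AOM on control diet, against 0.24, 0.26 and 1.64 after saline. It rose by 3.42 ± 0.63 on SJW diet and 3.78 ± 0.63 on control diet, with adjusted p of 0.0249 and 0.00992 in a limma fit over 34073 probes. The brighter probe A_52_P460887, which stood for the gene by the rule used here, differed by 0.37 ± 0.30 and 0.50 ± 0.30 (adjusted p = 0.502 and 0.41, limma over probes). In quantile-normalized red signal alone this probe averaged 13.59 ± 0.70 after AOM and 12.22 ± 0.39 after saline on SJW diet (SD, n = 3 each). On control diet it averaged 13.98 ± 0.65 and 13.24 ± 1.685. In the red channel alone Defa3 passed in tumours of both diets, and Defa20 also passed in SJW tumours. By the ratio to the pool, the AOM increase of the family was therefore seen with some defensin probes and was not detected with others. The transcripts that each probe binds were not examined.

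**Figure D2:**
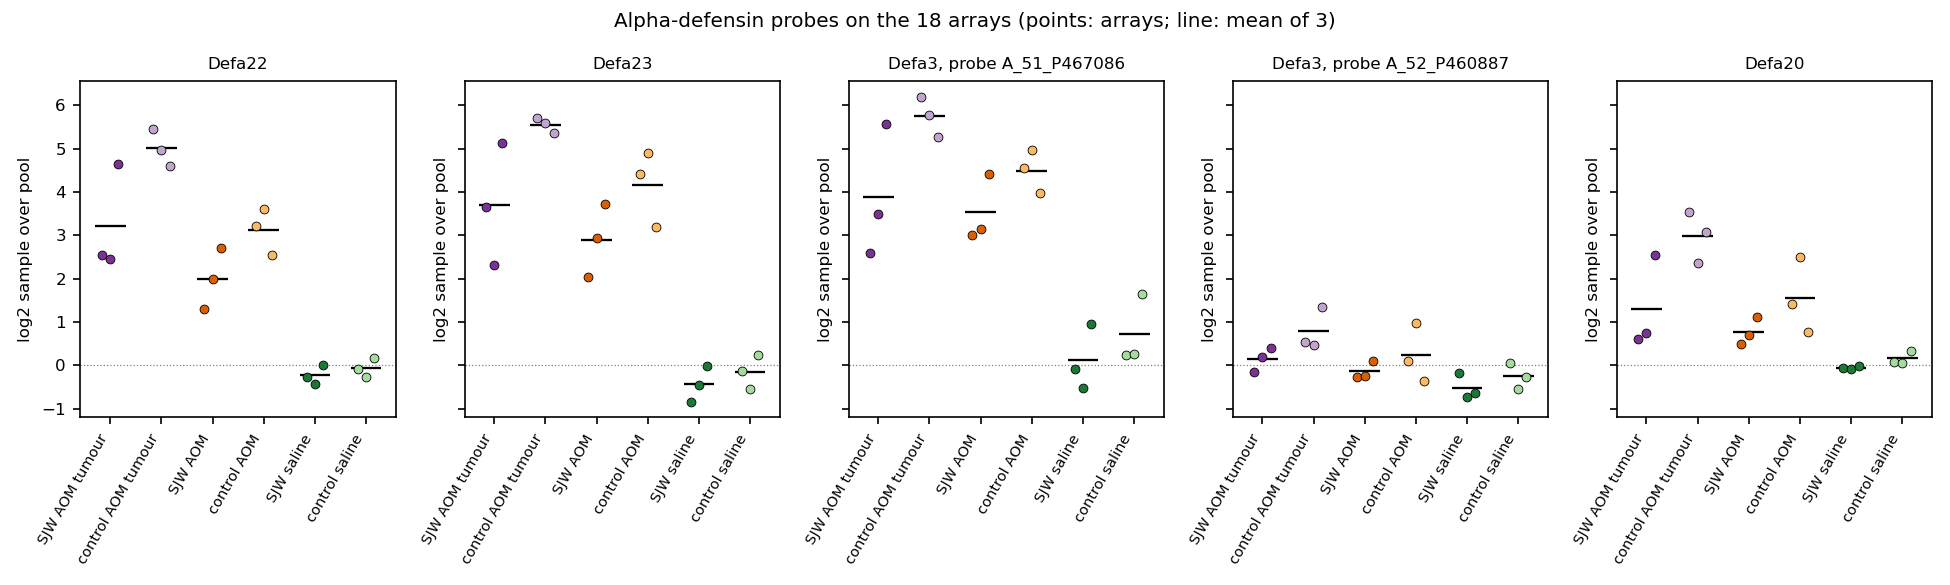
Log2 ratio of sample to pool for probes of Defa22, Defa23, Defa3 (2 probes) and Defa20, with points for arrays and lines for means of 3, on 1 vertical scale. The Defa3 probe A_51_P467086 follows Defa22 and Defa23, with all AOM arrays at 2.60 or above, while the Defa3 probe A_52_P460887 stays between -0.73 and 1.35.

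Mmp7, the protease that activates mouse alpha-defensins, rose in tumours of both diets. Its mean was 4.63 ± 0.56 in SJW tumours, against 0.87 ± 0.74 in SJW non-tumour tissue (SD, n = 3 each), and 5.23 ± 0.39 in control tumours, against 2.44 ± 0.51 in control non-tumour tissue. No arrays of these groups overlapped, as for 46.4% (SJW diet) and 42.5% (control diet) of all genes. The difference was 3.76 ± 0.54 (SE, adjusted p = 0.000139, limma) on SJW diet and 2.79 ± 0.54 (adjusted p = 0.00112, limma) on control diet. After AOM in non-tumour tissue it was at -0.19 ± 0.54 on SJW diet (adjusted p = 0.873, limma) and at 1.89 ± 0.54 on control diet (adjusted p = 0.0736, limma). The control diet difference passed with the replicate number as a block (adjusted p = 0.0293, limma) or without SJW saline replicate 3 (adjusted p = 0.0449, limma). It did not pass with slide as a block (adjusted p = 0.0501, limma), and over all settings its adjusted p was 0.0293 to 0.32. The SJW minus control difference of these 2 values was -2.08 ± 0.76, which did not pass (adjusted p = 0.944, limma).

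Lyz1, the lysozyme of mouse Paneth cells, stayed below the pool on every array. Tumours read -0.84, -1.14 and -1.15 on SJW diet and -1.09, -0.58 and -1.56 on control diet. Non-tumour tissue after AOM read -1.68, -2.22 and -0.77 on SJW diet, against -3.09, -3.52 and -3.20 after saline. On control diet Lyz1 read -1.18, -2.30 and -1.998 after AOM, against -3.25, -1.89 and -2.17 after saline. The groups were apart on SJW diet and overlapped on control diet. The AOM difference was 1.71 ± 0.39 (3.27-fold) on SJW diet and 0.61 ± 0.39 on control diet, and the tumour difference was 0.52 ± 0.39 and 0.75 ± 0.39.

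Lyz2, the closely related lysozyme gene of macrophages, had nearly the same profile as Lyz1, with Pearson r = 0.975 over the 18 arrays, the highest of any named gene. Arrays of one group share treatment and slide layout, so this r is a description. Lyz2 rose by 1.84 ± 0.39 after AOM on SJW diet (adjusted p = 0.0376, limma) and was at 0.27 ± 0.39 on control diet (adjusted p = 0.772, limma). Macrophage genes moved beside Lyz1, read as the mean of 7 markers with Lyz2 among them. That mean was -0.16 to 0.27 on tumour arrays, -1.07 to 0.16 on non-tumour arrays after AOM and -1.69 to -1.28 on saline arrays. In tumours 6 of 7 markers had positive differences in each diet. Aif1 was the exception, at -0.21 ± 0.27 (SJW diet) and -0.14 ± 0.27 (control diet). After AOM all 7 had positive differences in both diets, with 3 of 7 passing on SJW diet, Lyz2 among them (0.668% of all genes passed as higher) and 1 of 7 on control diet (1.75%). C1qc, a complement component made by macrophages, rose by 1.34 ± 0.30 (adjusted p = 0.0405, limma) and 1.24 ± 0.30 (adjusted p = 0.0423, limma). The part of macrophage RNA, or of Lyz2 transcripts bound by the Lyz1 probe, in the Lyz1 values was not tested. With slide as a block, or with brightness of the pooled channel as a block, 0 of 26067 genes passed for AOM on SJW diet, so these calls did not hold there, with 5322 and 3588 genes at an unadjusted p under 0.05 in the limma fits.

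Mptx1, which encodes a secreted pentraxin of the intestinal epithelium, was high in all non-tumour tissue and low in tumours. Tumours read 0.43, 1.89 and 2.48 on SJW diet, against 5.39, 4.71 and 5.87 in non-tumour tissue after AOM. On control diet tumours read 2.73, 1.33 and 4.32, against 5.95, 6.24 and 5.27. No tumour array reached the lowest non-tumour array of its diet. The difference was -3.73 ± 0.62 (13.2-fold lower) on SJW diet and -3.03 ± 0.62 (8.15-fold lower) on control diet. AOM alone moved it little, by -0.30 ± 0.62 and 0.09 ± 0.62, with saline arrays at 5.96, 4.94 and 5.96 on SJW diet and 5.63, 5.44 and 6.13 on control diet.

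The size of the Mptx1 difference depended on the channel read. The green signal, from a pool without intestine, followed the red one: log2 green was 5.95 to 6.37 on tumour arrays, where 1 of 6 was well above background, and 6.75 to 10.47 on the 12 non-tumour arrays, where all were. Red signal was well above background on 17 of 18 arrays, SJW AOM tumour replicate 1 being the exception. Red alone, after quantile normalization, gave -5.71 ± 0.79 (52.4-fold lower) on SJW diet and -6.07 ± 0.79 (67.3-fold lower) on control diet. The scanner software's ratio gave -1.75 ± 0.75 and -0.64 ± 0.75. The direction was the same in the 3 readings and the size was not settled. Colonocyte and goblet cell genes were lower beside it: all 9 colonocyte and all 10 goblet markers measured passed as lower in tumours of both diets, where 16.3% (SJW diet) and 19.9% (control diet) of all genes passed as lower. Car1, a carbonic anhydrase gene of colonocytes, had the profile most like that of Mptx1 (r = 0.968 over 18 arrays), followed by Pir (r = 0.961) and Vil1 (r = 0.96). The part of epithelial content in the Mptx1 values was not tested.

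Itln1, a lectin gene of goblet and Paneth cells, differed between non-tumour arrays with a bright and a dim pooled channel. It read 1.94, 1.62 and 2.33 after AOM on SJW diet, against 4.85, 1.43 and 4.81 after saline. On control diet it read 2.98, 5.17 and 2.60 after AOM, against 2.94, 3.99 and 5.35 after saline. The groups overlapped in both diets. The 5 non-tumour arrays with a bright pooled channel read 3.99 to 5.35, and the 7 dim ones read 1.43 to 2.98, with no overlap. Of the bright ones 4 were saline arrays, so brightness and treatment partly coincided. The 1 bright tumour array read 3.51, within the 1.09 to 3.79 of the dim tumour arrays. The AOM difference was -1.73 ± 0.87 on SJW diet and -0.51 ± 0.87 on control diet. With brightness class as a block it was -0.37 and 0.17. Tumours read 1.09, 1.96 and 2.43 on SJW diet and 3.79, 1.84 and 3.51 on control diet, and differed from non-tumour tissue by -0.13 ± 0.87 and -0.53 ± 0.87. Within-group SD was 1.22 for Itln1, the widest of the 7 members.

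Habp2, which encodes a secreted protease that binds hyaluronan, was highest in tumours. Tumours read 0.21, 0.79 and 0.61 on SJW diet, against -0.38, -0.75 and -0.37 in non-tumour tissue after AOM. On control diet tumours read -0.18, 1.88 and 0.71, against -0.63, -1.36 and -0.47. The lowest tumour array lay above the highest non-tumour array in each diet. The difference was 1.04 ± 0.44 on SJW diet and 1.62 ± 0.44 (3.08-fold) on control diet. After AOM in non-tumour tissue it was 0.53 ± 0.44 on SJW diet and 0.45 ± 0.44 on control diet, and 0.03 and 0.20 with brightness class as a block. Habp2 ran opposite to Itln1 in this respect, with -1.78 to -1.36 on the 5 bright non-tumour arrays and -0.75 to -0.29 on the 7 dim ones. Red signal of Habp2 was well above background on 15 of 18 arrays.

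**Figure D3:**
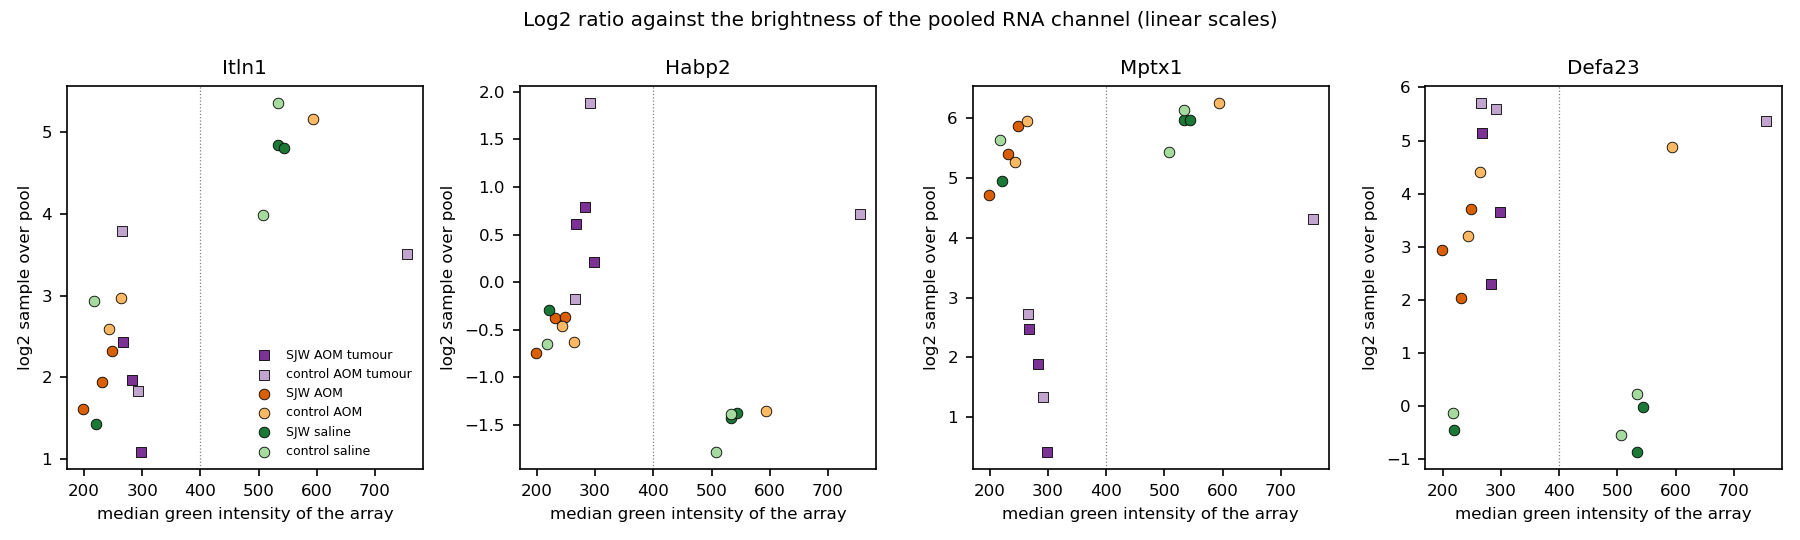
Log2 ratio of sample to pool against the median green intensity of the array, both on linear axes, for Itln1, Habp2, Mptx1 and Defa23; squares are tumour arrays and circles non-tumour arrays, coloured by group, and the dotted line marks an intensity of 400. Among non-tumour arrays Itln1 is higher and Habp2 lower on the 5 bright arrays. Defa23 separates AOM from saline arrays among the dim ones, and the bright ones include only 1 AOM array, on control diet.

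**Figure D4:**
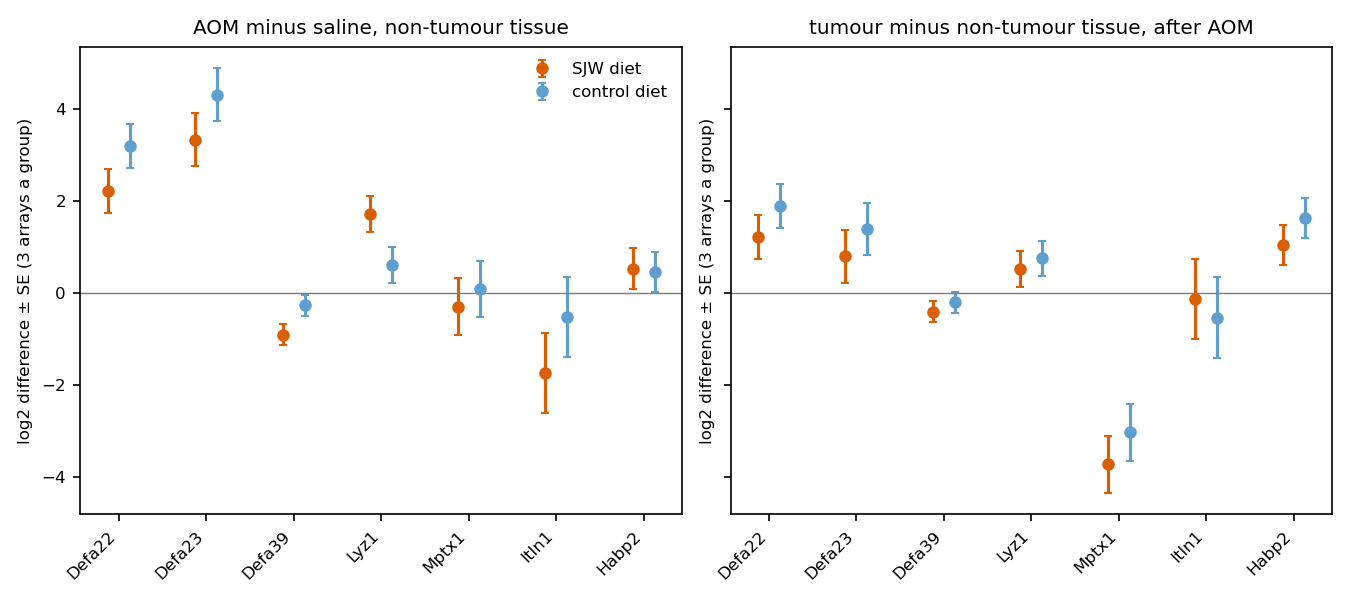
Log2 difference ± SE of the 7 members for AOM against saline (left panel) and tumour against non-tumour tissue (right panel), each in SJW and control diet, from 3 arrays a group. Defa22 and Defa23 lie highest on the left, between 2.22 and 4.31, and Mptx1 lies lowest on the right, at -3.73 and -3.03.

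The order of group means differed between members, and neighbours in it are compared here with the within-group SD. Defa22 ran from control tumour over SJW tumour, control AOM, SJW AOM and control saline down to SJW saline, and SJW tumour and control AOM, like the 2 saline groups, differed by less than its SD of 0.661. Defa23 had control AOM above SJW tumour, a pair that differed by less than its SD of 0.798, as did the 2 saline groups. Lyz1 was highest in the 2 tumour groups and lowest in SJW saline, and only the steps from control AOM to control saline and from there to SJW saline exceeded its SD of 0.535. For Mptx1 the 4 non-tumour groups lay within its SD of 0.856 of their neighbours, and both steps below them exceeded it. Itln1 had no step above its SD of 1.22. Habp2 had 1 step above its SD of 0.601, between the tumour and the non-tumour groups, and Defa39 had 1 step above its SD of 0.299, between SJW saline and the rest.

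Counted together, the members did not move as 1 set. Their median AOM difference was 0.53 on SJW diet and 0.45 on control diet, beside -0.02 and 0.00 over all genes. Passing members numbered 3 of 7 on SJW diet (Defa22, Defa23 and Lyz1, where 1.48% of all genes passed) and 2 of 7 on control diet (Defa22 and Defa23, where 2.39% passed). In tumours 1 of 7 passed on SJW diet (Mptx1, lower, where 25.6% of all genes passed) and 3 of 7 on control diet (Defa22 and Habp2 higher, Mptx1 lower, where 32.5% passed). On SJW diet after AOM, 0 of 7 passed with slide as a block, with brightness as a block, in the red channel alone, or without SJW saline replicate 3, SJW AOM replicate 2 or SJW AOM replicate 3. On control diet Defa22 and Defa23 passed after AOM in all 28 other settings. These contrasts were among those that chose the members, and nothing is read from the counts or from the settings that kept them.

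SJW set against control was -0.16 ± 0.48 for Defa22 after saline, -1.13 ± 0.48 in non-tumour tissue after AOM and -1.80 ± 0.48 in tumours. For Defa23 the same differences were -0.29 ± 0.57, -1.27 ± 0.57 and -1.86 ± 0.57, and the tumour arrays of the diets did not overlap (10.4% of all genes did not overlap there). Within slides the diet difference of Defa23 after AOM was -2.37 to 0.51, so it had both signs. With the probe used, Defa39 was higher on SJW diet after saline by 0.82 ± 0.23, without overlap (9.4% of all genes). After AOM it was higher by 0.19 ± 0.23, also without overlap. With its second probe the saline arrays of the diets overlapped, at 0.76 to 2.14 on SJW diet and 0.40 to 1.32 on control diet. Itln1 was lower on SJW diet after AOM by 1.62 ± 0.87 (difference -1.62), where the 3 SJW arrays had a dim pooled channel and 1 control array a bright one, and Itln1 and Defa39 were the 2 members without overlap there (9.13% of all genes). Members passing numbered 0 of 7 in each of the 3 diet comparisons, as did 0 of all 26067 genes (0% of all; limma, with 1531, 881 and 1571 genes at an unadjusted p under 0.05). Without SJW AOM tumour replicate 3, the highest of its group for both defensins, Defa22 passed as lower on SJW diet in tumours. In the diet comparisons a member passed under no other of the 28 settings. The members were chosen with these values known, so nothing is read from that call. The AOM difference of the SJW diet minus that of the control diet was -0.97 ± 0.68 for Defa22 and -0.98 ± 0.81 for Defa23, and 0 genes passed that test.

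Other Paneth cell genes were read from a list of 33, of which 28 were measured and Pla2g2a, Mptx2, Itln2 and Slc30a2 were not analysed here. After AOM in non-tumour tissue, on SJW diet 0 of 28 passed (1.48% of all genes), with 6 at an unadjusted p under 0.05 and a median of -0.19. On control diet 1 of 28 passed, as lower (0.648% of all genes as lower, 1.75% as higher), with 5 at an unadjusted p under 0.05 and a median of 0.00. That gene was the growth factor receptor Fgfr3, at -1.02 ± 0.26 (adjusted p = 0.0489, limma), a call that held in 9 of 28 other settings. Ang4, an antimicrobial ribonuclease gene of Paneth cells, was at -0.97 ± 0.92 on SJW diet (adjusted p = 0.57, limma) and -1.002 ± 0.92 on control diet (adjusted p = 0.614, limma).

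In tumours the list split, with 6 of 28 higher and 8 lower in each diet, where 9.36% and 16.3% of all genes passed as higher and lower on SJW diet and 12.6% and 19.9% on control diet. Beside Mmp7, the receptor gene Ephb3, which positions Paneth cells at the crypt base in mice, rose by 0.92 ± 0.14 on SJW diet (adjusted p = 0.0003, limma) and by 0.77 ± 0.14 on control diet (adjusted p = 0.000884, limma). Sox9, a transcription factor gene needed for Paneth cells in mice, rose by 0.72 ± 0.22 (adjusted p = 0.0235, limma) and 0.62 ± 0.22 (adjusted p = 0.0398, limma). The Notch ligand gene Dll4 rose by 0.63 ± 0.15 and 0.53 ± 0.15. Tgfa, a growth factor gene, rose by 0.77 ± 0.17 on SJW diet and was at 0.25 ± 0.17 on control diet. Bhlha15, which shapes secretory granules, rose by 0.88 ± 0.20 and 0.66 ± 0.20 with the probe used, while its other probe gave -0.25 and -0.58.

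Atoh1, Spdef and Gfi1 were lower in the same tumours, unlike Sox9 and Bhlha15 above, and Xbp1, a factor of secretory cells, was at 0.20 ± 0.21 on SJW diet and 0.23 ± 0.21 on control diet. Atoh1, the factor that commits crypt cells to secretory fates, fell by 2.34 ± 0.44 on SJW diet (adjusted p = 0.00126, limma) and by 2.20 ± 0.44 on control diet (adjusted p = 0.00148, limma). Spdef, a factor of goblet and Paneth cell maturation, fell by 2.47 ± 0.52 and 2.42 ± 0.52, and Gfi1, which acts after Atoh1, fell by 1.19 ± 0.25 and 1.57 ± 0.25. The chemokine gene Ccl6 fell by 2.95 ± 0.36 and 2.78 ± 0.36, and the growth factor gene Egf fell by 1.15 ± 0.26 and 0.97 ± 0.26. Fgfr3 fell by 1.46 ± 0.26 and 1.57 ± 0.26. Nupr1, a stress response gene, fell by 1.79 ± 0.37 on control diet and was at -0.82 ± 0.37 on SJW diet. Clps, the colipase gene, fell by 1.97 ± 0.58 on SJW diet, where the mean of 12 pancreatic acinar genes was 3.58 on non-tumour replicate 3 and -1.12 to -1.10 on replicates 1 and 2; the part of pancreatic RNA was not tested. The Wnt receptor gene Fzd5 fell by 0.93 ± 0.23 and 0.88 ± 0.23 with the probe used, while its other probe gave 0.21 and 0.34, and its sign turned in the red channel alone and in the deposited value table. Stem cell genes were higher beside these changes, with all 6 measured passing in both diets. Of all genes, 9.36% (SJW diet) and 12.6% (control diet) passed as higher, and the part of stem cells was not tested.

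**Figure D5:**
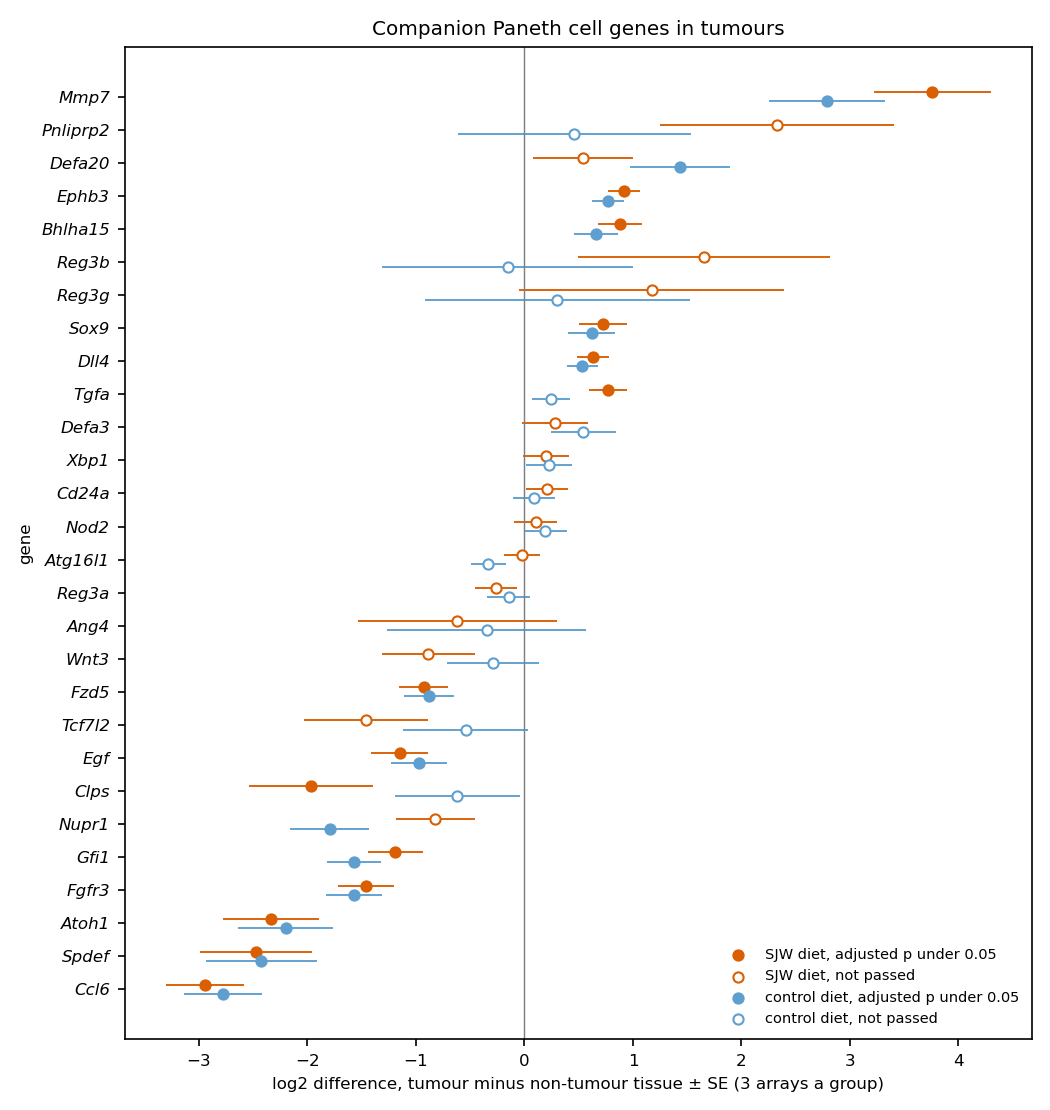
Log2 difference ± SE between tumour and non-tumour tissue for the 28 measured companion Paneth cell genes on SJW and control diet (3 arrays a group); filled points passed at an adjusted p under 0.05 over all genes. Mmp7 lies highest, at 3.76 and 2.79, and Ccl6 lowest, at -2.95 and -2.78.

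Genes most like each member were named by Pearson r of log2 ratios over the arrays, as a description. Over the 18 arrays Defa22 was closest to Wfdc17 (r = 0.949), Itpripl1 (r = 0.944) and its relative Defa20 (r = 0.936). Defa23 was closest to Arhgdig (r = 0.931), Ctps (r = 0.93) and Wfdc17 (r = 0.928). Over the 12 non-tumour arrays both were closest to Hsp90b1, a chaperone gene of the endoplasmic reticulum, and to Selenon, with r of 0.971 to 0.976. Lyz1 was closest there to Srgn (r = 0.977), Lyz2 (r = 0.976) and Lcp1 (r = 0.975), all expressed in white blood cells. Defa39 was closest to Lypd6 (r = 0.928) over 18 arrays, Itln1 to Rspo4 (r = 0.86) and Habp2 to Spry1 (r = 0.925). These r values pool groups that differ, and arrays share the pool and its brightness classes.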

How the data were processed

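RNA of 18 intestine samples was measured on 18 two-colour arrays of 45018 spots, read per the file headers with Agilent Feature Extraction 10.10.1.1. Per the file headers, the deposited intensity values are median pixel signals of each spot and its local background. The mean spot signal named as input when the tests were set out was not among the columns, so the median took its place. Per the file headers, the deposited log10 ratio divides red by green once the scanner software has subtracted background and balanced the dyes. The deposited log2 values cover 35491 probes and matched the software's ratios on each array (r of at least 0.9955), so scale and direction are known. The columns were not centred: their medians for replicates 1 to 3 were 0.183, 0.125 and 0.157 (SJW tumour), 0.158, 0.126 and 0.342 (control tumour), 0.109, 0.129 and -0.032 (SJW AOM), 0.102, 0.205 and 0.053 (control AOM), 0.226, 0.146 and 0.146 (SJW saline) and 0.159, 0.207 and 0.15 (control saline). Lyz1 and Defa20 have no value from that table here.

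Background was corrected with normexp (offset 50). Its parameters were estimated without the 1 to 14 spots per channel, on 4 channels, whose local background exceeded the spot by over 50, since 2 such spots moved the fitted red background of control saline replicate 2 from -6.17 to -703. Ratios were normalized by loess with the 1639 control spots at weight 0. Outlier and control spots were left out, and saturated spots were kept; member spots had none. Probes were retained where red signal exceeded background (the software's flag) on each of the 3 arrays in any 1 group, leaving 34073 of 41174. Names came from RefSeq transcript accessions (27050 probes with 1 symbol, 14124 with none). The brightest probe stood for a gene.

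Comparisons used limma 3.58.1 (R 4.3.3) in 1 fit of 18 arrays with 12 residual degrees of freedom, Benjamini-Hochberg adjustment over 26067 genes in each of 9 comparisons and a threshold of 0.05. The scripts were tested on simulated data. Replicate numbers match slides on non-tumour arrays, but same-numbered samples correlated from -0.274 to 0.45 over 18 pairs, so the numbers were not taken to pair samples. Promoters were aligned with Biopython 1.88. Members and gene lists were chosen with earlier results of these data known. Named companion genes were those passing in an AOM or tumour comparison, with Ang4, Mmp7 and Lyz2. Likeness took the 3 symbols with the highest r per member. Defa3, Xbp1, C1qc, Cd24a and the tissue markers fall outside that rule and were named after their values were seen. The number of arrays limits the precision.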

Additional observations from a re-analysis of the deposited data

Results flagged for a closer look

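The companion genes Nupr1, Cd24a and Ccl6 had opposite signs of change after AOM on the 2 diets, with all 3 AOM arrays above the saline mean on one diet and all 3 below it on the other. For Nupr1 the AOM difference was -0.94 ± 0.37 on SJW diet and 0.82 ± 0.37 on control diet, -1.763 apart (adjusted p = 0.944 for the difference, limma). For Cd24a, a surface glycoprotein gene, it was -0.12 ± 0.20 and 0.48 ± 0.20, -0.602 apart (adjusted p = 0.944, limma). For Ccl6 it was -0.26 ± 0.36 and 0.23 ± 0.36, -0.486 apart (adjusted p = 0.99, limma). The opposite signs were therefore not matched by a difference that passed.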

How the results depend on the processing

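The results were recomputed under 28 other settings, 18 of which left out 1 array each. Of 1755 recomputed member differences, 1724 stayed within 1 within-group SD of the reported value, 31 moved by more and 0 clear differences changed sign. Defa22 and Defa23 kept AOM differences of 1.87 to 2.72 and 2.93 to 4.80 on SJW diet and of 2.95 to 3.48 and 3.95 to 5.14 on control diet. On SJW diet neither passed with slide or brightness as a block, in the red channel alone, or without SJW saline replicate 3, SJW AOM replicate 2 or SJW AOM replicate 3, and Defa22 also did not pass with the scanner's ratio, in the deposited table, or without SJW saline replicate 1 or 2 or control AOM tumour replicate 2. These contrasts were among those that chose the members, and nothing is read from whether they passed. The median tumour difference of the members on control diet was 1.43 in the red channel alone, against 0.75 as reported. The median SJW difference in tumours was -0.54 with brightness of the pooled channel as a block, a setting chosen after seeing the data. The number of companion genes passing for AOM on control diet was 0 with median centring, no filter on dim probes, slide as a block or normexp fitted on all spots (also chosen after seeing the data), 2 with the mean of a gene's probes, and 2 with the replicate block, against 1 as reported. For AOM on SJW diet it was 1 with the mean of probes, against 0. In control diet tumours it was 9 in the deposited table, against 14. Fzd5 changed sign in tumours, to 0.343 (SJW diet) and 0.541 (control diet) in the deposited table and 1.33 and 0.80 in the red channel alone.

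Leaving out 1 array at a time, companion counts ranged from 0 to 3 (AOM, SJW diet), 0 to 1 (AOM, control diet), 12 to 15 (tumour, SJW diet), 9 to 15 (tumour, control diet) and 0 to 0 in the diet comparisons and in both differences between diets. The 3 came without SJW saline replicate 2 (Atoh1, Gfi1 and Fzd5) and the 9 without control AOM replicate 1. Member medians ranged from 0.34 to 0.90, 0.20 to 0.72, 0.08 to 0.91 and 0.50 to 1.08 in the same order, and from -0.29 to 0.09 (SJW over control, saline), -0.77 to -0.19 (AOM) and -1.82 to -0.43 (tumour). Of 29 companion calls, 16 passed in every setting. Over all genes the calls for AOM on control diet numbered 624, against 150 with slide as a block and 152 with normexp on all spots. For AOM on SJW diet they numbered 385, against 0 with slide or brightness as a block and 8 in the red channel alone. The causes were not tested. Dim red signal limits Defa23, Habp2 and Mptx1.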
